A study of Mus musculus with 12 samples.

Results

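Nerve terminals release transmitter through a set of proteins that load, dock, prime and fuse synaptic vesicles, and 38 genes of that set were followed here in the forebrain of newborn mice. The 38 were taken by gene symbol from the 55335 genes listed for each library, and all 38 were found. They comprise genes of the synaptotagmin family (Syt1, Syt2, Syt4, Syt6, Syt7, Syt11) and the Rab3 effector Rph3a, vesicle proteins (Syn1, Syn2, Syn3, Syp, Syngr1, Synpr, Rab3a, Rab3c), SNARE proteins with their partners (Snap25, Vamp1, Vamp2, Stx1a, Stxbp5, Nsf, Cplx1, Cplx2, Cplx3), scaffolds and priming factors of the active zone (Unc13a, Unc13b, Unc13c, Rims1, Rims2, Rimbp2, Bsn, Pclo, Erc1, Erc2, Ppfia2), and genes of vesicle endocytosis (Snap91, Amph, Synj1).

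The libraries were made from single nuclei of mice of the MYT1L S710fsX strain, on a C57BL/6 background, at postnatal day 1 (P1). WT mice (8 libraries, 5 male and 3 female) were compared with mice heterozygous (Het) for a frameshift in Myt1l, a neuronal transcription factor (4 libraries, 3 male and 1 female). The mutation is in the germline, so every cell type of a Het animal carried it, and no drug or other allele was used. Filters on depth and doublets left 94124 nuclei, 4456 to 10849 per library, with median depths of 1711 to 2057.5 unique molecular identifiers (UMIs, counts of distinct RNA molecules) per nucleus, and no barcode was shared between libraries. The study describes the libraries as biological replicates.

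In an active terminal, Syt1 senses calcium and triggers fusion by the SNARE complex of Snap25, Stx1a and Vamp2, which complexins clamp and Nsf takes apart for reuse. Rims, Rimbp2, Unc13 proteins, Bsn, Pclo and the Erc proteins hold vesicles and calcium channels at the active zone, and Amph, Snap91 and Synj1 act when vesicle membrane is retrieved. Newborn cortex is still forming synapses, and its neurons lie at several stages, with upper-layer neurons born last. RNA in nuclei is not a measure of the protein at the terminal.

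Nuclei were sorted by marker genes into 18 classes, which held 76072 of the 94124 nuclei (80.8%). The excitatory classes were immature upper-layer-like (6291 nuclei), upper-layer-like (15180), layer 5-like (5446), layer 6-like (8244) and L6b/subplate-like (1172). Of 6 markers listed for each, 5 were raised by a set margin over all kept nuclei in the immature upper-layer-like and 3 in the layer 5-like class. Tfap2d was among the 10 leading genes of the former and Il1rapl2 of the latter, and neither is a marker used. The inhibitory classes were MGE-like (6399), CGE-like (2382), D1-like (5829) and D2-like (3935) nuclei, with a class of 2726 nuclei gated on markers of immature inhibitory neurons. The latter had Tshz1 first and Sp8 among its 10 leading genes and is called the Tshz1/Sp8 class, because the reference genes bore out its immature label only in part. The immature reference genes summed to 1434 ± 229 (SD) CPM (UMIs of a gene, scaled to a common library total) in it, the highest mean of the inhibitory classes, against 1247 ± 245 in CGE-like, 1237 ± 231 in MGE-like, 1077 ± 226 in D2-like and 900.2 ± 129.9 in D1-like nuclei. The ratio of mature to immature reference genes (for example Meg3 and Camk2a to Dcx and Sox11) was 4.89 ± 1.97 (SD, n = 12 libraries) in the Tshz1/Sp8 class, against 4.44 ± 0.96 in CGE-like, 6.25 ± 1.395 in MGE-like, 10.0 ± 2.16 in D2-like and 10.7 ± 2.88 in D1-like nuclei. For excitatory neurons the ratio followed the labels, from 1.64 ± 0.49 in immature upper-layer-like to 3.41 ± 1.32 in upper-layer-like, 5.09 ± 1.68 in layer 5-like, 6.12 ± 1.66 in layer 6-like and 7.03 ± 0.74 in L6b/subplate-like nuclei. Much of this order came from the noncoding genes Meg3 and Snhg11. Without them, the mature genes summed to 540 CPM in immature upper-layer-like, 1109 in upper-layer-like, 761 in layer 5-like, 445 in layer 6-like and 657 in L6b/subplate-like nuclei. The classes are also different lineages sampled at a single age, so a step from immature to mature here is a difference between classes, not a course in time. A class of 435 nuclei gated as intermediate progenitors was led by Eomes and Neurog2 but also by Ebf2, Ebf3 and Sim1, and its ratio of 4.59 ± 2.48 lay above that of the immature neurons, so it was not used as the start of the order.

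Summed over the 38 genes, the release genes made up 1.11% ± 0.03 (SD, n = 12) of UMIs in immature upper-layer-like nuclei and 1.36% ± 0.07 in L6b/subplate-like nuclei. The upper-layer-like (1.05% ± 0.02), layer 5-like (1.13% ± 0.03) and layer 6-like (1.12% ± 0.03) sums lay near that of the immature class. The sum therefore hardly moved with the maturity ratio until L6b/subplate, although most single genes differed between classes. It mixes opposite changes. Ppfia2, an abundant member (mean 1440 CPM over all kept nuclei), was lower in all 4 mature excitatory classes than in the immature class (median log2 difference -1.20). A sum without Ppfia2 was not computed. Among inhibitory classes the MGE-like sum stood apart at 1.37% ± 0.02. Outside neurons the sum ranged from 0.266% ± 0.030 in mural/fibroblast nuclei to 0.721% ± 0.028 in the oligodendrocyte lineage.

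**Figure D1:**
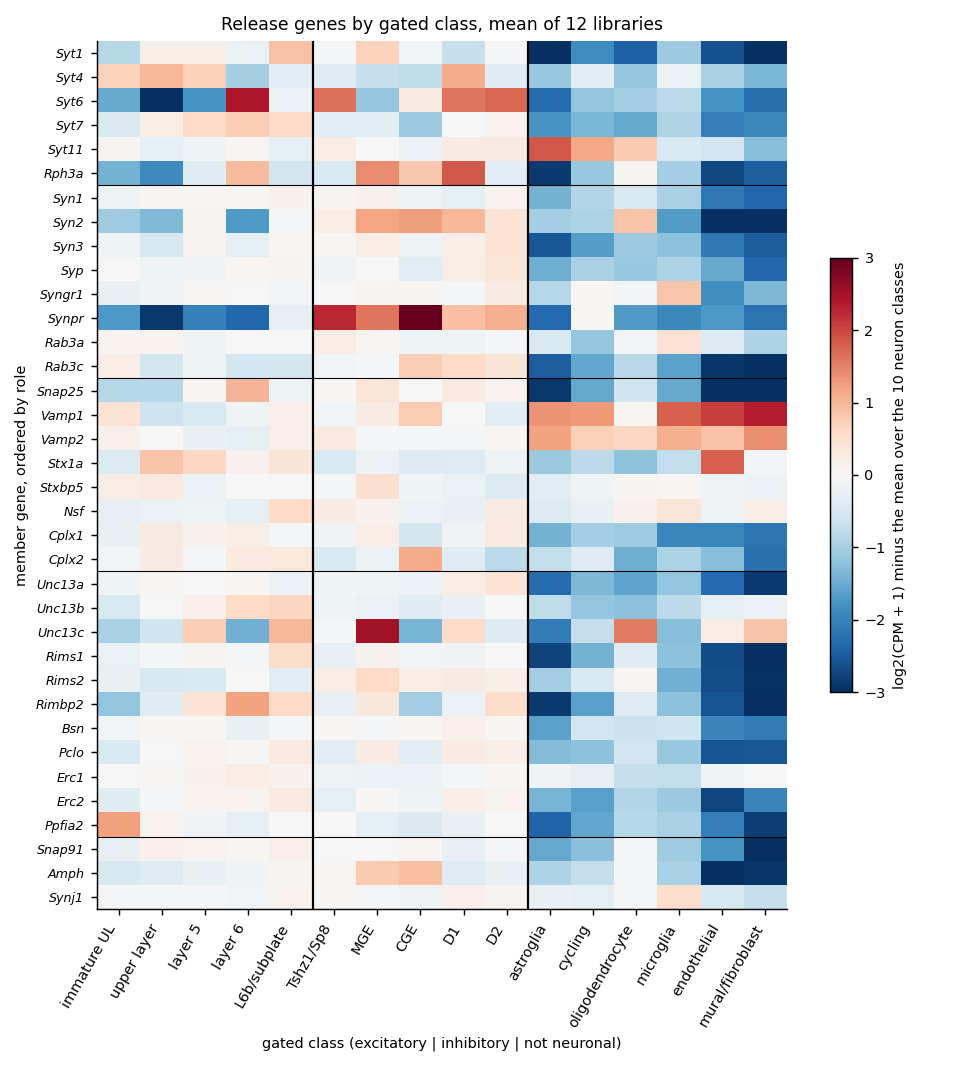
Mean level of 36 release genes (rows, by role) in 16 gated classes (columns), as log2(CPM + 1) minus the mean over the 10 neuron classes, averaged over 12 libraries; red is above and blue below that mean. Syt2 and Cplx3 are left out as too low, and the intermediate progenitor and Cajal-Retzius classes are not drawn. Syt6, Snap25 and Rimbp2 have their highest values in layer 6, Rph3a in D1, Unc13c in MGE and Synpr in CGE nuclei, and most genes are blue in the non-neuronal columns.

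To ask how the release genes differed from immature to mature excitatory classes, each mature class was compared with the immature upper-layer-like class within the same libraries. More genes were higher than lower in every step. Of 36 members tested, 19 were higher and 8 lower in upper-layer-like nuclei, beside a background of 19.4% of all 11203 genes tested called higher and 19.1% called lower. In layer 5-like nuclei 22 were higher and 4 lower (background 21% and 20.5%), in layer 6-like nuclei 20 and 6 (22% and 21.3%), and in L6b/subplate-like nuclei 20 and 4 (17.1% and 16.1%). A call needed an adjusted p under 0.05 by edgeR and a log2 difference of at least 0.2. The median log2 difference of the members was 0.23, 0.31, 0.34 and 0.39 in these 4 steps, against -0.02, -0.04, -0.03 and -0.05 over all genes. Syt2 (412 UMIs in all nuclei) and Cplx3 (38 UMIs) were too low to test.

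In all 4 excitatory steps 11 genes were higher: the sensors Syt1 and Syt7, the vesicle-tethering synapsin Syn1, the SNARE gene Stx1a, the active zone genes Unc13b, Rims1, Rimbp2, Pclo and Erc2, and the endocytic genes Snap91 and Amph. Ppfia2, which encodes the scaffold liprin-alpha2, and Rab3c, a vesicle GTPase, were lower in all 4. Another 7 genes were higher in some steps and lower in others (Syt4, Syt6, Syn2, Syn3, Synpr, Stxbp5 and Rph3a). Syp (synaptophysin), Rab3a and Synj1 (the endocytic lipid phosphatase) were called in none. The share of all genes called the same way in all 4 steps was not computed, here or for the counts below. All 4 steps use the same immature class, so their calls are not independent, and the single-step shares do not give that share. Unc13b and Amph were the only members whose mean CPM rose through all 5 classes in the order of the maturity ratio, but for Unc13b the fitted difference was smaller in L6b/subplate-like than in layer 6-like nuclei.

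**Figure D2:**
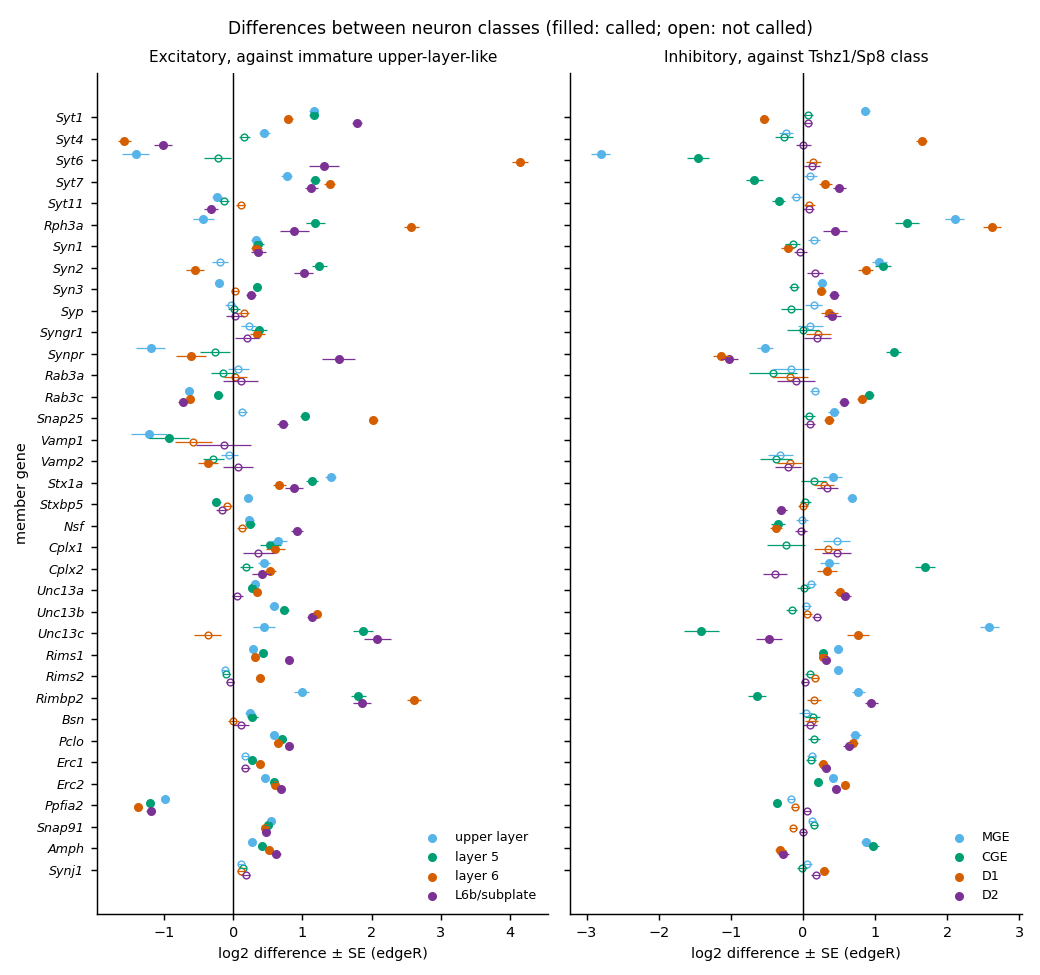
Log2 difference ± SE (horizontal axis) of each release gene (rows) between mature classes and the immature upper-layer-like class (left) or the Tshz1/Sp8 class (right), by edgeR over 12 libraries; filled points were called. Rimbp2 lies to the right in all 4 excitatory steps and Ppfia2 to the left, while Syt6 spans from -1.41 in upper-layer-like to 4.15 in layer 6-like nuclei.

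Promoter sequence is shown for 5 of these genes, 3 of the genes higher in every step and both genes lower in every step, chosen after their values were seen. Each is a RefSeq promoter on build GRCm38.p6, from 250 bases before to 50 after the transcription start. Syt1 has 2 listed promoters, of which the first is shown. Capitals mark AAGTT, the core motif of the MYT1 family, searched on both strands (its reverse complement is AACTT).
Rimbp2 (chr5:128953437-128953736, minus strand): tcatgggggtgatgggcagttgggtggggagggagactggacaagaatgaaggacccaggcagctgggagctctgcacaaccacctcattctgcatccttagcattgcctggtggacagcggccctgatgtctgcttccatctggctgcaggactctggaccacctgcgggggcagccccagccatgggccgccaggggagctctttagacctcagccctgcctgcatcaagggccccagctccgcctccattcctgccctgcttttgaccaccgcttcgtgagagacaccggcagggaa
Syt1 (chr10:109010926-109011225, minus strand): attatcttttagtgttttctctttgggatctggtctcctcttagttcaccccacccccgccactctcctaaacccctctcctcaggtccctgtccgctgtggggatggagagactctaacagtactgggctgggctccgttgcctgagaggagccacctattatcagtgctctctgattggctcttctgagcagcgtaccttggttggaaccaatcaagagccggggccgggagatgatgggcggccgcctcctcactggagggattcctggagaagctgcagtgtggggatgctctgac
Stx1a (chr5:135023232-135023531, plus strand): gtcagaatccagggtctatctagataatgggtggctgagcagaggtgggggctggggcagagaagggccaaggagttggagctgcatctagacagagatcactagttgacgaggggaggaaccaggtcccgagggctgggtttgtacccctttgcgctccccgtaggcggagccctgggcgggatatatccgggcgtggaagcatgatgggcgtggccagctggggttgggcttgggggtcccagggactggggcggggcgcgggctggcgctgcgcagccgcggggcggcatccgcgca
Rab3c (chr13:110280157-110280456, minus strand): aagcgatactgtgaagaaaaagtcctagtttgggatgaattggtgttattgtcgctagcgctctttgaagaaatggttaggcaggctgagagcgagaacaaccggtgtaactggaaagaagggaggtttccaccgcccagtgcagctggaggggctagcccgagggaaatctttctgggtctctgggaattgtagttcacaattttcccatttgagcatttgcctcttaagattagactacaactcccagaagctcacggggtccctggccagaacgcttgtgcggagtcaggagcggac
Ppfia2 (chr10:106470060-106470359, plus strand): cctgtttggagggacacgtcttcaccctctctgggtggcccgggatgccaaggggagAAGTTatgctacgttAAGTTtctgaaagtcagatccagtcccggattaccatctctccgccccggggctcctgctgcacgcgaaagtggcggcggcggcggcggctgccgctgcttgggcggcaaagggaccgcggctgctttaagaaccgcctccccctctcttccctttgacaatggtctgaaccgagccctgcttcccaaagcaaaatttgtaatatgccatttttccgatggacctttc
The Ppfia2 promoter held 2 matches and the other 4 none. Over all genes, 39.3% of 32851 promoters of this length held a match, and of the 42 promoters listed for 32 of the members, 10 did (23.8%). The motif is short, so a match describes the letters and not a site. The GC content was 62.7% for Rimbp2, 56.7% for Syt1, 66.3% for Stx1a, 50.7% for Rab3c and 58.3% for Ppfia2.

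Among the synaptotagmins, Syt1, the fast calcium sensor of evoked release, ranged from 825 to 1203 CPM (median 939) over the 12 libraries in immature upper-layer-like nuclei. It ranged from 1858 to 2173 (median 1931) in upper-layer-like, 1831 to 2113 (median 1939) in layer 5-like, 1285 to 1889 (median 1482) in layer 6-like and 2524 to 3855 (median 3189.5) in L6b/subplate-like nuclei. None of these ranges overlapped the immature one, and the log2 differences were 1.17 ± 0.07, 1.16 ± 0.07, 0.79 ± 0.07 and 1.79 ± 0.07 (SE). Syt7, a slower high-affinity sensor, had its highest mean in layer 6-like nuclei, at 200.1 ± 14.1 CPM (SD) against 85.9 ± 20.7 in the immature class, a log2 difference of 1.39 ± 0.07 (SE). In the other steps its difference was 0.77 ± 0.07 in upper-layer-like, 1.18 ± 0.07 in layer 5-like and 1.12 ± 0.09 in L6b/subplate-like nuclei.

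Syt6 gave the largest difference of the members. It ranged from 8.22 to 29.6 CPM (median 16.02) in immature upper-layer-like and from 216 to 376 CPM (median 272) in layer 6-like nuclei, a log2 difference of 4.15 ± 0.11 (SE). In upper-layer-like nuclei it was lower than in the immature class (5.34 ± 1.90 CPM, log2 -1.41 ± 0.20), in layer 5-like nuclei it was not called (13.8 ± 5.18 CPM), and in L6b/subplate-like nuclei it was higher (1.32 ± 0.22). Among the excitatory classes Rph3a was also highest in layer 6, with 80.9 to 135 CPM (median 104) there against 11.8 to 25.7 (median 19.8) in the immature class, a log2 difference of 2.58 ± 0.11. It was also higher in layer 5-like (1.18 ± 0.14) and L6b/subplate-like nuclei (0.88 ± 0.21) and lower in upper-layer-like nuclei (-0.44 ± 0.15). Syt4 ran the other way, from 142 ± 34.4 CPM in the immature class to 42.9 ± 11.6 in layer 6-like (log2 -1.58 ± 0.10) and 69.0 ± 20.1 in L6b/subplate-like nuclei (-1.01 ± 0.13), yet it was higher in upper-layer-like nuclei (0.45 ± 0.08). Syt11, which is also made by glia, was lower in upper-layer-like (-0.24 ± 0.07) and L6b/subplate-like nuclei (-0.32 ± 0.10).

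Within the SNARE group, Snap25 was higher in the deep-layer classes. It ranged from 146 to 241 CPM (median 199) in immature upper-layer-like, 175 to 233 (median 194) in upper-layer-like, 297 to 458 (median 364) in layer 5-like and 621 to 894 (median 745) in layer 6-like nuclei. The log2 differences were 2.02 ± 0.06 (SE) in layer 6-like, 1.03 ± 0.06 in layer 5-like and 0.71 ± 0.08 in L6b/subplate-like nuclei, with 0.13 ± 0.06 and an adjusted p of 0.0974 in upper-layer-like nuclei. Stx1a, its partner on the plasma membrane, was instead highest in upper-layer-like nuclei, with 63.6 to 117 CPM (median 85.1) against 26.6 to 44.4 (median 34.8) in the immature class (log2 1.41 ± 0.08). It was higher by 1.14 ± 0.09 in layer 5-like, 0.67 ± 0.09 in layer 6-like and 0.88 ± 0.13 in L6b/subplate-like nuclei. Cplx1 and Cplx2 were each called higher in 3 of the 4 steps, by 0.41 to 0.65, and Nsf in 3, with its largest difference in L6b/subplate-like nuclei (0.92 ± 0.08). Vamp1 was lower in upper-layer-like (-1.21 ± 0.26) and layer 5-like nuclei (-0.93 ± 0.29), Vamp2 in layer 6-like nuclei (-0.37 ± 0.15), and Stxbp5, an inhibitor of SNARE assembly, in layer 5-like nuclei (-0.25 ± 0.06).

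Of the 11 active zone genes, 5 were higher in all 4 excitatory steps (Unc13b, Rims1, Rimbp2, Pclo and Erc2) and Ppfia2 was lower in all 4. Unc13a and Unc13c were higher in 3, Bsn and Erc1 in 2 and Rims2 in 1. Rimbp2, which links Rims to calcium channels, ranged from 30.4 to 70.7 CPM (median 45.1) in the immature class, 45.9 to 105 (median 79.7) in upper-layer-like, 109 to 180 (median 142) in layer 5-like, 194 to 311 (median 249) in layer 6-like and 133 to 184 (median 156) in L6b/subplate-like nuclei. Its log2 differences were 0.99 ± 0.11, 1.81 ± 0.11, 2.62 ± 0.10 and 1.86 ± 0.13 (SE). Pclo, a giant scaffold, was above the highest immature library in every library of all 4 mature classes, with differences of 0.59 to 0.80, and Erc2 rose by 0.45 to 0.68. The priming factor Unc13b rose by 0.59 in upper-layer-like, 0.74 in layer 5-like, 1.21 in layer 6-like and 1.14 in L6b/subplate-like nuclei. Unc13c was higher in layer 5-like (118 ± 26.9 CPM, log2 1.88 ± 0.15) and L6b/subplate-like nuclei (143 ± 36.5 CPM, log2 2.08 ± 0.19) than in the immature class (35.2 ± 17.2 CPM). Its difference in layer 6-like nuclei was not called (25.4 ± 10.1 CPM, log2 -0.37 ± 0.19, adjusted p = 0.113). In upper-layer-like nuclei it was called higher (0.45 ± 0.16), but the sign turned under a stricter gate (-0.50) and in the Het libraries alone (-0.01).

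Ppfia2 was the clearest gene of the opposite direction. It ranged from 3052 to 4189.5 CPM (median 3677) in immature upper-layer-like nuclei and was at most 1800.1 CPM in any library of the 4 mature classes, with log2 differences of -0.99 ± 0.06, -1.20 ± 0.06, -1.38 ± 0.06 and -1.20 ± 0.06 (SE). It was also 1.30 ± 0.06 higher in the immature class than in the Eomes/Neurog2 class. In that comparison 3 members were higher and 10 lower in the immature neurons (background 9.41% and 6.53%), and this split depended on the setting. It was 2 and 15 with DESeq2 (3.32% and 11.3% of all genes) and 2 and 14 with RLE size factors (3.6% and 9.11%). It was 5 and 5 with nuclei thinned to 800 UMIs (14.2% and 4.45%), 3 and 3 under a stricter gate (3.64% and 3.23%) and 4 and 4 in the WT libraries alone (5.83% and 4.08%). Of the 13 calls 12, 12, 8, 5 and 7 were kept in these 5 settings. Rab3c (0.52 ± 0.08) and Stxbp5 (0.41 ± 0.11) were the others higher, and Snap25 (-0.33 ± 0.10) and Pclo (-0.26 ± 0.07) were among the lower. Rab3c fell from 457 ± 63.8 CPM in the immature class to 265 ± 27.2 in layer 6-like nuclei (log2 -0.63 ± 0.06), and its difference was -0.64 ± 0.06 in upper-layer-like, -0.21 ± 0.06 in layer 5-like and -0.73 ± 0.07 in L6b/subplate-like nuclei.

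**Figure D3:**
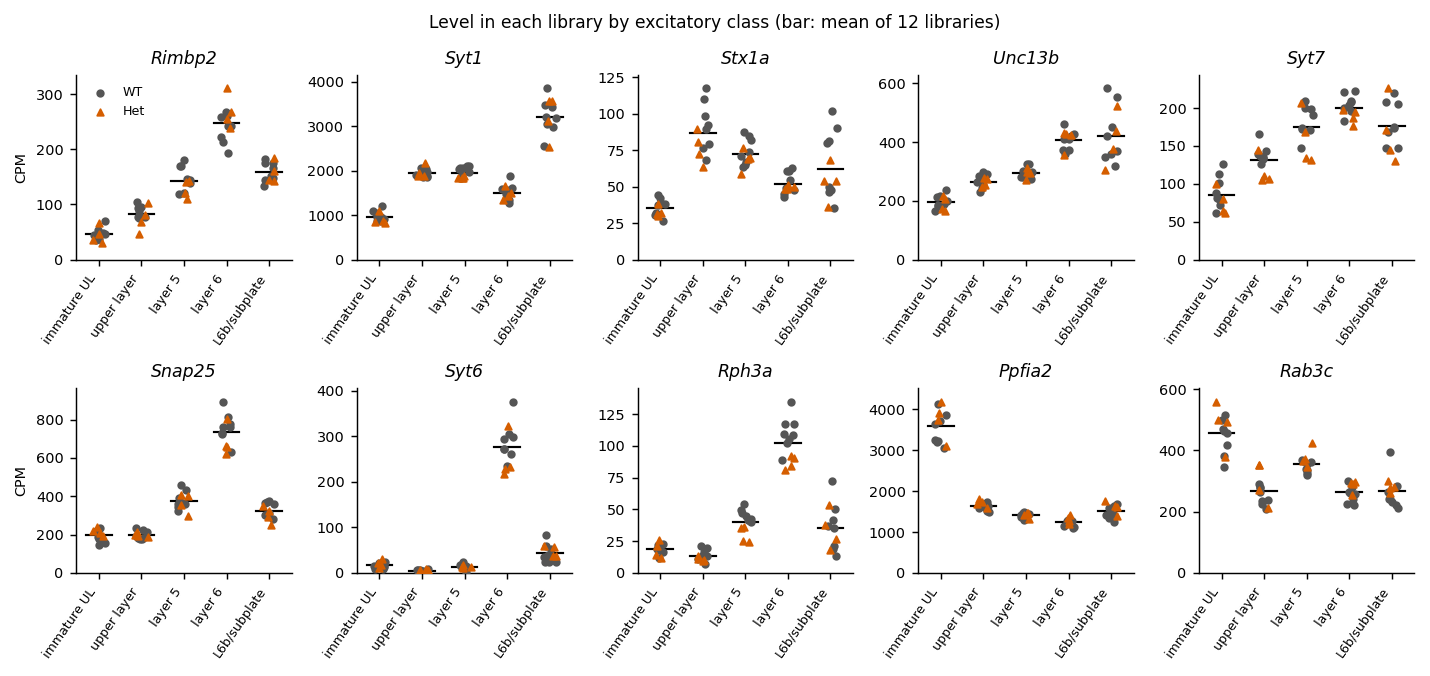
Level (CPM, vertical axis) of 10 release genes in each of the 12 libraries (circles WT, triangles Het) across the 5 excitatory classes (horizontal axis), with the mean as a bar. Ppfia2 and Rab3c start highest in the immature class, Rimbp2, Snap25, Syt6 and Rph3a peak in layer 6, and Stx1a peaks in the upper layers.

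Vesicle proteins differed by class in opposite directions. Syn1 was higher in every step by 0.33 to 0.36. Syn2 ranged from 60.7 to 137 (median 94.8) CPM in the immature class and from 162 to 255 (median 201) in layer 5-like nuclei (log2 1.24 ± 0.11, SE), but from 45.9 to 74.6 (median 59.9) in layer 6-like nuclei (log2 -0.56 ± 0.13). In L6b/subplate-like nuclei it was higher (1.02 ± 0.14). Syn3 was higher in layer 5-like (0.34 ± 0.06) and L6b/subplate-like nuclei (0.26 ± 0.07) and lower in upper-layer-like nuclei (-0.20 ± 0.06). Synpr, a synaptophysin relative, was lower in upper-layer-like (-1.19 ± 0.21) and layer 6-like nuclei (-0.61 ± 0.22) and higher in L6b/subplate-like nuclei (1.52 ± 0.23). Of the endocytic genes, Snap91, a clathrin adaptor, was higher by 0.45 to 0.54 and Amph by 0.26 to 0.62, while Synj1 was not called. The depth per nucleus differed between classes, with a median of 1516 UMIs in immature upper-layer-like and 2971.5 in layer 5-like nuclei. With nuclei thinned to 800 UMIs, 23 of 27 calls in the upper-layer-like, 22 of 26 in the layer 5-like, 25 of 26 in the layer 6-like and 21 of 24 in the L6b/subplate-like step were kept with their direction. Nuclei below 800 UMIs after rounding were left out of this setting, 69 of them in the immature upper-layer-like class.

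The 74 other genes of the release machinery found in the files, listed with earlier results known, had more higher than lower calls in the mature excitatory classes. Of 66 tested, 30 were higher and 2 lower in upper-layer-like (background 19.4% and 19.1% of all genes), and 34 and 3 in layer 5-like nuclei (21% and 20.5%). Counts were 33 and 5 in layer 6-like (22% and 21.3%), and 27 and 3 in L6b/subplate-like nuclei (17.1% and 16.1%). Sh3gl2 (endophilin A1, which binds Synj1) differed by 1.18 ± 0.07 to 2.31 ± 0.07 (log2 ± SE) in the 4 steps. In the inhibitory comparisons described next, 62 were tested. Counts were 16 higher and 10 lower in MGE-like (background 13.5% and 13.7%), and 7 and 15 in CGE-like nuclei (9.26% and 12.4%). They were 24 and 11 in D1-like (20.5% and 20.2%), and 18 and 10 in D2-like nuclei (15.7% and 14.9%). The dense-core vesicle priming genes Cadps (1.05 ± 0.08) and Cadps2 (1.91 ± 0.12) were higher in L6b/subplate-like nuclei, but not there alone. Cadps was also higher in layer 5-like (0.93 ± 0.07) and Cadps2 in upper-layer-like nuclei (1.49 ± 0.10). Ppfia4, a paralogue of Ppfia2, was higher in layer 5-like (1.31 ± 0.10) and layer 6-like nuclei (2.30 ± 0.09). Cadps2 was lower in D1-like nuclei than in the Tshz1/Sp8 class (-2.57 ± 0.18).

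Inhibitory classes were compared with the Tshz1/Sp8 class, whose mean maturity ratio lay below those of MGE-like, D1-like and D2-like nuclei and above that of CGE-like nuclei. Lineage and maturity cannot be told apart in these comparisons. Of 35 members tested, 15 were higher and 2 lower in MGE-like nuclei (background 13.5% and 13.7% of 9714 genes), 8 and 7 in CGE-like (9.26% and 12.4%), 16 and 5 in D1-like (20.5% and 20.2%), and 11 and 4 in D2-like nuclei (15.7% and 14.9%). Rims1, Erc2 and Rph3a were higher in all 4. The share of all genes higher in all 4 was not computed, and the 4 comparisons use the same Tshz1/Sp8 class. Bsn, Rab3a, Unc13b, Snap91, Syngr1, Vamp2 and Cplx1 were called in none, and Vamp1, Syt2 and Cplx3 were too low to test. The median log2 difference of the members was 0.15, 0.01, 0.25 and 0.12 in these classes, against 0.00, 0.00, -0.01 and -0.01 over all genes.

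Single classes carried large differences. Unc13c ranged from 318 to 632 (median 379.8) CPM in MGE-like nuclei against 31.1 to 122 (median 63.3) in the Tshz1/Sp8 class, a log2 difference of 2.59 ± 0.13 (SE), and was lower, at 26.2 ± 16.7 CPM (SD), in CGE-like nuclei (-1.41 ± 0.25). No MGE-like library overlapped the Tshz1/Sp8 range. Rph3a ranged from 145 to 251 (median 193) CPM in D1-like and from 122 to 168 (median 140.1) in MGE-like nuclei, against 19.0 to 74.8 (median 31.9) in the Tshz1/Sp8 class. Its log2 differences were 2.62 ± 0.13 and 2.10 ± 0.13, with no overlap. D1-like nuclei, a striatal projection neuron type, also had more Syt4, with 189 ± 25.8 CPM (SD) against 68.2 ± 14.1 in the Tshz1/Sp8 class (log2 1.64 ± 0.08). CGE-like nuclei had more Synpr (703 ± 78.4 against 318 ± 136 CPM, log2 1.26 ± 0.11) and Cplx2 (87.6 ± 15.8 against 28.5 ± 9.22 CPM, log2 1.70 ± 0.14), and higher Rph3a (1.44 ± 0.16), Syn2 (1.11 ± 0.11), Amph (0.98 ± 0.08) and Rab3c (0.91 ± 0.07).

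In MGE-like nuclei Syn2 (1.06 ± 0.10), Amph (0.87 ± 0.07), Pclo (0.73 ± 0.07), Rims1 (0.49 ± 0.06) and the related scaffold Rims2 (0.49 ± 0.05) were higher. In D1-like nuclei Rab3c (0.82 ± 0.07), Erc2 (0.58 ± 0.05) and the priming factor Unc13a (0.51 ± 0.07) were higher. In D2-like nuclei Pclo (0.64 ± 0.08), Unc13a (0.59 ± 0.07) and Erc2 (0.45 ± 0.05) were higher.

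Lower calls were fewer and sat in particular classes. Syt6 was lower in MGE-like (21.8 ± 3.58 against 159 ± 43.3 CPM, log2 -2.81 ± 0.14) and CGE-like nuclei (-1.46 ± 0.15). Synpr was lower in MGE-like (-0.53 ± 0.11), D1-like (-1.13 ± 0.12) and D2-like nuclei (-1.02 ± 0.12). In CGE-like nuclei Syt7, Syt11, Nsf, Rimbp2 and Ppfia2 were lower as well, by -0.34 to -0.67. In D1-like nuclei Syt1, Syn1, Nsf and Amph were lower by -0.21 to -0.54, and in D2-like nuclei Stxbp5, Unc13c and Amph by -0.27 to -0.47. Syt1, in contrast, was higher in MGE-like nuclei, at 2572 to 3050.4 (median 2826) CPM against 1465 to 2127 (median 1606), ranges that did not overlap (log2 0.86 ± 0.06). Cplx2 was called higher in D1-like nuclei (0.34 ± 0.14) but turned to -0.03 under a stricter gate.

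Release gene counts were also found in nuclei gated outside neurons. The median member reached 17.9% of its mean over the 10 excitatory and inhibitory classes (all but the Eomes/Neurog2 and Cajal-Retzius classes) in mural/fibroblast nuclei, 22.2% in endothelial, 37.1% in astroglia, 42.5% in cycling, 47.5% in microglia and 62.6% in oligodendrocyte lineage nuclei. Whether these counts came from RNA of the nuclei themselves was not tested. The class gated as microglia was led by Mrc1, F13a1 and Stab1, with Lyve1 and Cd163 among its 10 leading genes. Whether it held other macrophages was not tested. Some members were highest outside neurons. Syt11 had 355 ± 51.4 CPM (SD) in astroglia, or 360.3% of its mean over these 10 classes. Stx1a had 165 ± 41.8 CPM in endothelial nuclei, or 333% of its mean over them, and Vamp1 and Vamp2 were highest in mural/fibroblast nuclei, at 576% and 269.7% of theirs. Syngr1, Synj1 and Rab3a had their highest means in the microglia class, at 180%, 145% and 138% of theirs. That class held only 542 nuclei, 16 to 76 per library, with 895648 UMIs in all. Syngr1 and Rab3a are low genes (21.3 and 9.65 CPM over the 10 classes), so their values there rest on few counts. Vamp1 overlaps the genes Tapbpl and Cd27 on the opposite strand in GENCODE M21 (mm10), Syngr1 overlaps Rpl3 and Rab3a overlaps Mpv17l2. Reads of such opposite-strand pairs cannot be told apart unless the counting used strand, on which no source read here says anything. Of the 38 members, 26 overlap another gene on the opposite strand and 17 another gene on the same strand, where strand does not help. A protein-coding gene is overlapped by 11 of them.

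The question of whether the frameshift changed the release genes was put to WT and Het libraries. A frameshift need not remove the transcript, so the Myt1l count does not check the genotype label. Myt1l itself had 1829 to 1961 CPM in the 4 Het and 1390.4 to 1806 (median 1667) in the 8 WT libraries over excitatory nuclei. Every Het library thus lay above every WT library. The share of all genes that separate this way was not computed. The paper's Results text gives 4 WT and 8 Het animals at P1, whereas its Methods and the labels give 8 WT and 4 Het. The labels were followed. Of the 37 members tested, 0 were called in all excitatory, all inhibitory or all kept nuclei, and the background was 0% of 15468, 14055 and 20052 genes, by edgeR. DESeq2 also called 0 members, while calling 37, 6 and 20 genes in the 3 populations. At an unadjusted p under 0.05, 10, 7 and 11 members passed, beside 12.4%, 8.03% and 9.88% of all genes. Of the 37 members, 25 had a negative Het minus WT difference in excitatory, 22 in inhibitory and 28 in all nuclei, with median log2 differences of -0.11, -0.01 and -0.09, against 0.00, 0.00 and 0.00 over all genes. No member was called in any of the 18 classes, where the background was 0.13% in layer 6-like, 0.012% in immature upper-layer-like, 0.0102% in MGE-like, 0.00806% in upper-layer-like and 0% in the other classes.

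**Figure D4:**
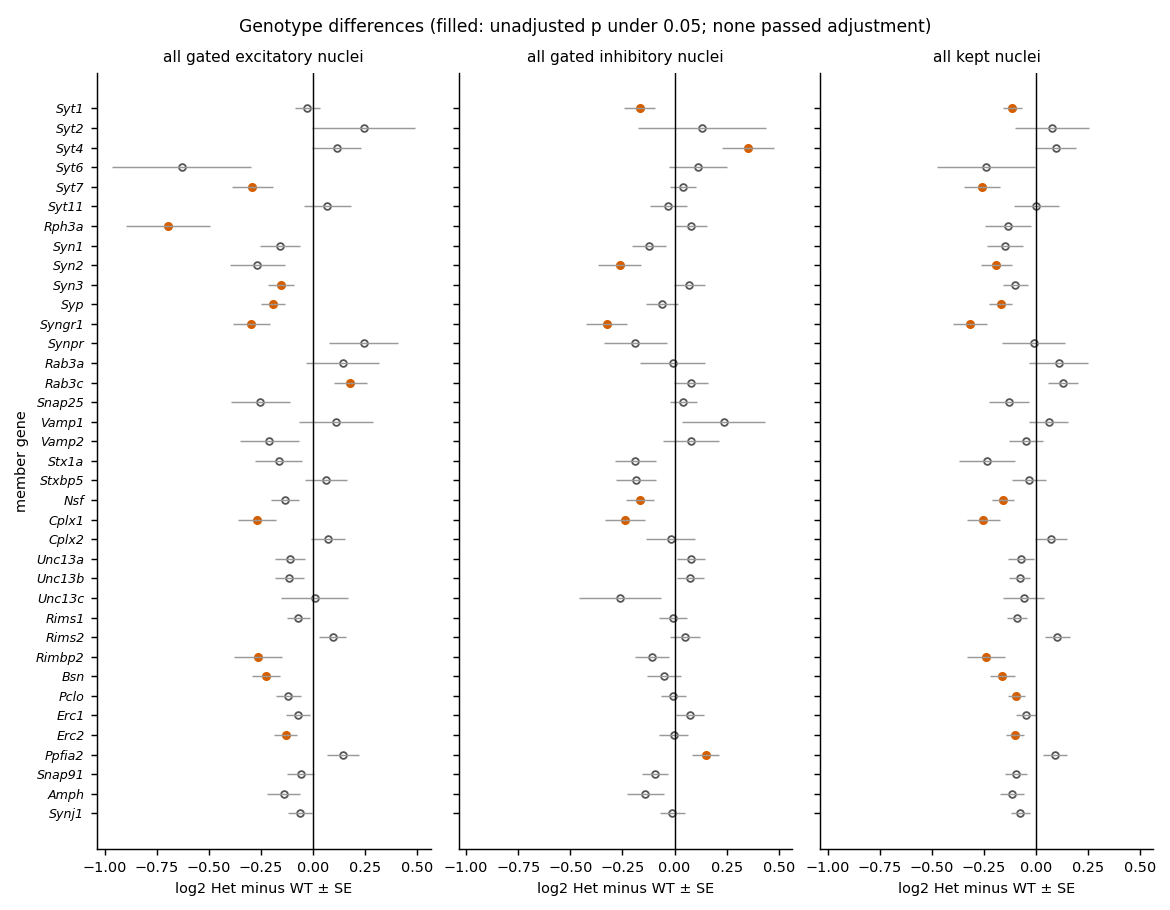
Log2 difference of Het minus WT ± SE (horizontal axis, edgeR) for 37 release genes (rows) in all excitatory, all inhibitory and all kept nuclei; filled points have an unadjusted p under 0.05. No gene passed adjustment, and Rph3a in excitatory nuclei lies lowest at -0.70.

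The members with the smallest p in excitatory nuclei all had lower means in Het. In GENCODE M21 (GRCm38/mm10) these genes lie at chr5:120940499-121010092 (Rph3a, minus strand), chrX:7638471-7653256 (Syp, plus strand), chr15:80091334-80119501 (Syngr1, plus strand), chr9:108096022-108190384 (Bsn, minus strand) and chr19:10389090-10453180 (Syt7, plus strand). Rph3a had 21.9, 23.7, 29.2 and 43.5 CPM in Het 1 to Het 4, and 35.6 to 71.9 (median 43.9) in WT. The only female Het library, Het 4, lay inside the WT range and the other 3 below it. The log2 difference was -0.70 ± 0.20 (SE) with an adjusted p of 0.263 by edgeR, and the two-sided exact permutation test gave p = 0.0384. Among excitatory classes Rph3a had its highest mean in layer 6-like nuclei, which made up 6.33% ± 2.68 (SD) of nuclei in Het and 10.3% ± 3.87 in WT. Over 21 alternatives, among them a fit with the classes weighted equally, the Rph3a difference ranged from -0.93 to -0.28. With a replicate left out it ranged from -0.93 to -0.58, so the smallest difference came from another setting. The equally weighted fit called no member, but neither did the main fit, so the count does not bear on this share. The part of this share in the result was not tested. Within layer 5-like nuclei it had 24.5 to 36.5 CPM in Het against 39.8 to 54.6 (median 43.6) in WT, with no overlap, and within layer 6-like nuclei 80.9 to 91.8 against 88.8 to 135 (median 109). The adjusted p by edgeR was 0.305 and 0.158 there. Synpr, named after its values were seen, differed the other way in layer 6-like nuclei, with 16.4, 19.7, 28.8 and 9.03 CPM in Het and 4.48 to 13.03 (median 8.55) in WT. Its log2 difference was 0.99 ± 0.26 (adjusted p = 0.170), and it was called higher in Het without Het 4 (1.28, adjusted p = 0.0139) and with no low-count filter (0.96, adjusted p = 0.00222).

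Syp, which encodes the major vesicle membrane protein synaptophysin, had 48.2, 46.2, 46.1 and 46.2 CPM in Het and 48.5 to 57.1 (median 53.6) in WT excitatory nuclei, with no overlap. The difference was -0.19 ± 0.06 (adjusted p = 0.275, exact permutation p = 0.00808). Syngr1, a vesicle protein related to it in structure, had 17.9, 16.9, 17.9 and 18.3 CPM in Het and 17.9 to 25.4 (median 21.9) in WT, a difference of -0.30 ± 0.09 (adjusted p = 0.280, exact permutation p = 0.0182). Its Het libraries lay at the low end of the WT range or below it. Bsn, the active zone scaffold, had 61.0, 54.1, 55.8 and 52.4 CPM in Het and 55.2 to 72.8 (median 64.3) in WT, which overlapped, with a difference of -0.23 ± 0.07 (adjusted p = 0.280, exact permutation p = 0.0141).

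For Syt7 the overlap of the groups rested on a single library. It had 121, 116, 119 and 174 CPM in Het 1 to Het 4, against 145 to 186 (median 161) in WT, a difference of -0.29 ± 0.10 (adjusted p = 0.281, exact permutation p = 0.0283). The 3 male Het libraries lay below every WT library and the female Het library within the WT range. Syt7 also had its highest excitatory mean in layer 6-like nuclei, the class with the smaller share in Het. Within that class it had 198, 187, 177 and 195 CPM in Het and 183 to 223 (median 206) in WT, a difference of -0.13 ± 0.07 (adjusted p = 0.586), and within upper-layer-like nuclei 110.0, 106, 105 and 145 and 127 to 165 (median 136), a difference of -0.27 ± 0.09 (adjusted p = 0.321). The groups overlapped in both. Without Het 4, edgeR called 4 members lower in Het: Syt7 (-0.45, adjusted p = 0.00333), Rph3a (-0.93, adjusted p = 0.0181), Syn2 (-0.47, adjusted p = 0.0274) and Rimbp2 (-0.42, adjusted p = 0.0286), with 372 genes called in all. The share of all genes called in that fit was not computed. For Rimbp2, which likewise had its highest mean in layer 6-like nuclei, the difference over all 12 libraries within that class was 0.16 ± 0.09 (adjusted p = 0.645), opposite in sign, against -0.25 ± 0.15 in upper-layer-like and -0.22 ± 0.11 in layer 5-like nuclei. Syn2, highest in layer 5-like among the excitatory classes, differed there by -0.21 ± 0.11 (adjusted p = 0.617) and by 0.24 ± 0.11 (adjusted p = 0.515) in layer 6-like nuclei. The part of the class shares in these calls was not tested. With male libraries alone, an alternative chosen after seeing the data, Syt7 was called lower (-0.41, adjusted p = 0.0138). Sex and this library cannot be told apart among the Het libraries, and with sex as a term in the model 0 members were called.

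In inhibitory nuclei Syngr1 had 21.7, 18.9, 19.4 and 18.9 CPM in Het and 20.4 to 29.0 (median 25.0) in WT, a difference of -0.33 ± 0.10 (adjusted p = 0.472, exact permutation p = 0.0141). Syt4 had 91.3, 119.8, 121 and 122 CPM in Het and 51.1 to 108 (median 89.6) in WT, a difference of 0.35 ± 0.12 (adjusted p = 0.538, exact permutation p = 0.0162). D1-like nuclei, in which Syt4 was called higher than in the Tshz1/Sp8 class, were 7.77% ± 2.41 (SD) of Het and 4.84% ± 1.99 of WT nuclei, and the lowest WT library, WT 4, held 25 of them. In D1-like nuclei alone Syt4 had 198 ± 19.7 CPM in Het and 185 ± 28.7 in WT, with a log2 difference of 0.04 ± 0.10 (SE). Over 21 alternatives, among them a fit with the inhibitory classes weighted equally, the Syt4 difference ranged from 0.24 to 0.44. That fit called no member, but neither did the main fit, so the count does not bear on the class shares. The part of the class shares was not tested. Syn2 (-0.26 ± 0.10), Cplx1 (-0.24 ± 0.09) and Nsf (-0.16 ± 0.07) had lower means in Het, with adjusted p of 0.571, 0.571 and 0.578 and exact permutation p of 0.0586, 0.0343 and 0.0424. In all kept nuclei Syngr1, Cplx1, Nsf, Syt7 and Syp had the smallest p, with differences of -0.16 to -0.32 and adjusted p of 0.378 to 0.406 by edgeR. These members were picked for small p on the same libraries, so their permutation p carry no weight beyond the adjusted p.

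**Figure D5:**
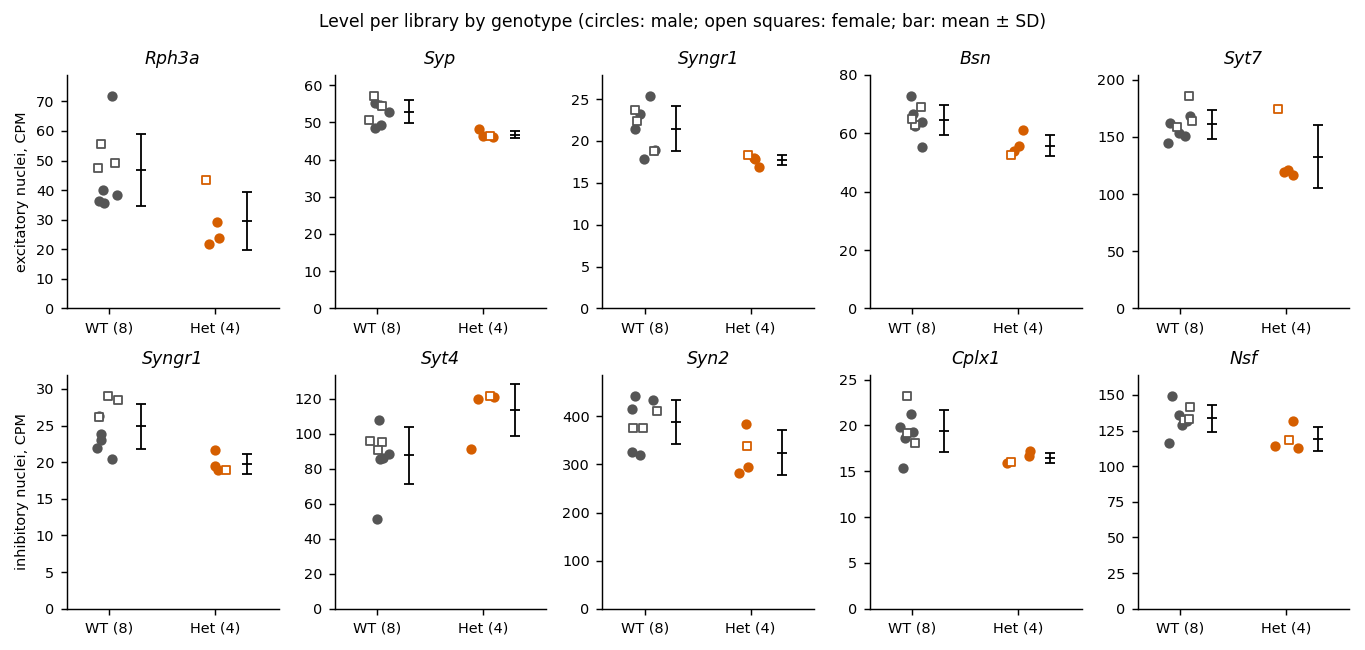
Level (CPM, vertical axis, from 0) of the 5 members with the smallest p in excitatory (top) and inhibitory (bottom) nuclei, for each WT and Het library; circles are male, open squares female, and the bar gives mean ± SD. Het Syp values of 46.1 to 48.2 lie below every WT value, and the female Het library sits above the other 3 for Syt7 and Rph3a.

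Whether the step from immature to mature neurons differed between genotypes was tested as a genotype by class term. For both steps tested, to upper-layer-like and to layer 6-like nuclei, 0 of 37 members were called (background 0.00829% and 0% of 12062 genes), with 2 and 4 members at an unadjusted p under 0.05, beside 5.51% and 6.11% of all genes. Syn2 (-0.59 ± 0.21, adjusted p = 0.688) and Unc13c (-0.80 ± 0.33, adjusted p = 0.835) had the smallest p in the upper-layer-like step, and Syt4 (0.58 ± 0.20, adjusted p = 0.509) in the layer 6-like step, by edgeR. Of the 27 upper-layer-like, 26 layer 5-like, 26 layer 6-like and 24 L6b/subplate-like calls, 23, 24, 24 and 22 were kept in the WT libraries alone and 22, 21, 20 and 21 in the Het libraries alone, with their direction. The 74 other machinery genes likewise gave 0 calls between genotypes, with median differences of -0.13 in excitatory, -0.03 in inhibitory and -0.10 in all kept nuclei.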

How the data were processed

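Single-nucleus RNA-seq libraries were made from 12 P1 forebrain samples by split-pool barcoding. The deposited values are estimated counts of UMIs per gene and nucleus, written by the authors' ScaleRna pipeline against mm10, and 6.58% to 6.88% of the entries per library are fractional. Sums were therefore rounded to whole numbers, although whole counts had been planned for. The submitters' processing notes also name Seurat 4.3.0. Libraries held 15439429 to 40784144 UMIs, which limits the genes that could be tested.

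Of 126684 barcodes, 98076 passed, which required a complexity (log genes over log UMIs) of at least 0.9, mitochondrial UMIs not above 1%, between 300 and 3000 detected genes, and a depth between 800 and 6000 UMIs. A simulated-doublet score marked 5% (6333) of barcodes, and 3952 of these were removed from the barcodes that passed. Nuclei were gated by marker genes (posterior of at least 0.9), with thresholds set after seeing the data. Counts were summed per library and class with at least 10 nuclei and tested across libraries with edgeR 4.0.16 (quasi-likelihood, Benjamini-Hochberg adjusted p under 0.05 and log2 difference of at least 0.2). The genotype fits compared Het with WT, and class comparisons were fitted within libraries. DESeq2 1.42.0 and limma 3.58.1 (R 4.3.3) were alternatives, as were other filters, gates, size factors, covariates and left-out libraries. Scripts were tested on simulated data. The text names the 5 members with the smallest p in the genotype fits over all excitatory, all inhibitory and all kept nuclei, and in class comparisons up to 10 of the largest calls shared by all libraries and the calls against the majority. The members and lists were chosen with earlier results of these data known.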

Additional observations from a re-analysis of the deposited data

Results flagged for a closer look

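Of 30 groups of 4 or 8 libraries examined for the named genotype values, 4 held a library far from the rest by Dixon's criterion, and chance alone marks about 1 in 20 groups. In excitatory nuclei, Syp in Het 1 was the highest of the Het libraries at 48.2 CPM, with the next at 46.2. Syt7 in Het 4, the only female Het library, was the highest Het value at 174 CPM, with the next at 121. In inhibitory nuclei, Syt4 in WT 4 was the lowest WT value at 51.1 CPM, with the next at 85.9. Syt4 in Het 1 was the lowest Het value at 91.3 CPM, with the next at 119.8.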

How the results depend on the processing

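No named value changed sign relative to its reported one in the genotype fits, and of the values recomputed for named members 961 kept direction and side of the threshold, 65 lost the call and 5 gained it. In excitatory nuclei, where 0 members and 0 genes were called, the members called lower came to 1 with no low-count filter (Rph3a, adjusted p = 0.0338) and 1 with male libraries alone, and to 0 to 4 with a replicate left out. The genes called came to 37 with DESeq2, 70 with no filter, 128 with males alone, 2 with classes weighted equally (limma, 4822 genes tested) and 0 to 372 with a replicate left out. In inhibitory nuclei 1 member was called higher with no filter (Syt4, adjusted p = 0.0363), and the genes called came to 6 with DESeq2, 156 with no filter and 3 with the replicate block. In all kept nuclei the genes called came to 20 with DESeq2, 1 with all deposited barcodes, 3 with males alone and 0 to 46 with a replicate left out. Summed over the 18 classes, no filter gave 3 calls higher (Rims1 in astroglia, Synpr in layer 6-like and Syt1 in mural/fibroblast nuclei) and 3 lower (Rph3a in layer 5-like and in layer 6-like and Syn2 in upper-layer-like nuclei), with 11 to 322 genes called per class. Leaving out a replicate gave 0 to 1 higher and 0 to 4 lower. Without Het 4 these were Synpr in layer 6-like (higher), and Rph3a in layer 5-like and Syn2, Syt7 and Unc13c in upper-layer-like nuclei (lower), with 0 to 172 genes called per class. For these genotype settings the shares of all genes tested were not computed.

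Among class comparisons, with the share of all genes called the same way in the same fit in parentheses, thinning to 800 UMIs gave 5 (14.2%) members higher and 5 (4.45%) lower in the immature against the Eomes/Neurog2 class, and 5 (20.2%) lower in upper-layer-like, 2 (20.3%) in layer 5-like, 3 (20.2%) in D1-like and 2 (15.3%) in D2-like nuclei. A stricter gate gave 3 (3.23%) lower in the immature class, 1 (15.1%) in layer 5-like and 4 (8.35%) in CGE-like nuclei. No filter gave 6 (1.88%) lower in the immature class and 5 (4.5%) in upper-layer-like nuclei. WT libraries alone gave 4 (4.08%) lower in the immature class, 5 (15.6%) in upper-layer-like, 3 (17.5%) in D1-like and 1 (11.8%) in D2-like nuclei. Het libraries alone gave 1 (11.9%) lower in layer 5-like, 3 (13.2%) in layer 6-like and 1 (6.36%) in MGE-like nuclei, and 7 (7.67%) higher in D2-like nuclei. Leaving out a replicate gave 2 to 4 (18.9% to 20.8%) lower in layer 5-like nuclei. For the genotype by class term, no filter gave 2 members lower in the upper-layer-like step (Syn2, adjusted p = 0.0281; Unc13c, adjusted p = 0.0222) with 69 genes, a stricter gate 0 genes, and leaving out a replicate 0 to 21. In the layer 6-like step the genes came to 2 with a stricter gate, 106 with no filter and 0 to 26 with a replicate left out. Shares of all genes were not computed for the genotype by class settings. The cause of these changes was not tested. The males-alone, equally weighted and Het-alone class settings were chosen after seeing the data.

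The labels do not say that replicate numbers pair the samples. The paper drew its P1 tissue from 4 litters, which the labels do not give, and the correlations below cannot exclude a shared litter. The numbers are those of the labels within each sex, so Het 4 was set against WT 6, both female. The correlations of deviations for the 4 same-numbered pairs were 0.017, 0.088, 0.061 and 0.214 in excitatory nuclei, and only Het 4 correlated best with its own number. With the replicate block 0 members were called in all 3 genotype fits. Depth limits the low members: Syt2 and Cplx3 could not be tested between excitatory classes.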
